A study of Mus musculus with 4 samples.

Results

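The mitochondrial protein import genes encode the translocases of the outer membrane (TOM) and inner membrane (TIM) together with the factors that sort, pull, fold and cleave imported proteins. They were chosen by name, as the protein-coding genes whose symbols begin with Timm or Tomm apart from Timmdc1, joined by Samm50, Mtx1, Mtx2, Pam16, Dnajc19, Dnajc15, Grpel1, Grpel2, Hspa9, Hspd1, Hspe1, Pmpca, Pmpcb, Chchd4 and Gfer. This gave 40 of the 22298 genes in the deposited count table, and the rule itself used no measured value. RNA-seq had been performed on brown adipose tissue (BAT) of C57BL/6 mouse fetuses (C57BL/6J in the study's methods) near birth, on the final day of gestation, with 2 libraries in the control group and 2 in the fructose group. Control dams drank tap water and fructose dams drank water with 20% (w/v) fructose during gestation. The labels give all 4 libraries as male, and the sources used here do not give the number of fetuses or litters behind a library. The comparison asked whether the RNA levels of the import genes in fetal BAT differed between the 2 maternal diets.

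Control libraries 1 and 2 held 19224529 and 18542897 gene counts, and the fructose libraries 22461298 and 23645147. Levels are written as CPM, counts relative to the library total after TMM scaling. The 4 Y-linked genes Ddx3y, Eif2s3y, Kdm5d and Uty summed to 422 and 390 counts in the control libraries and to 0 in both fructose libraries, which goes against the male label of the fructose libraries. Maternal diet and this difference cannot be told apart in these libraries, and no comparison of the groups below could be made without the fructose libraries. The 12 markers of brown adipocytes were detected in every library and summed to 14634 and 17294 CPM in control and 15725 and 14173 CPM in fructose. Most of this sum was Ucp1 and Cidea. In the test described below 2 of the 12 fell, Cox7a1 and Cox8b (log2 fold changes of -0.36 and -0.44). The 3 that rose were Ppargc1a, Elovl3 and Ebf2 (1.16, 0.79 and 0.55), and 7 were not called. Ucp1, the uncoupling protein that defines brown fat, had an adjusted p of 0.59 in edgeR's quasi-likelihood test (log2 fold change -0.10). All 18 tested markers of skeletal muscle were higher in fructose, and the sum of all 20 listed went from 281 and 388 CPM to 928 and 691 CPM, with Myh4 at 0 counts in both controls. Of the 7 erythroid markers 5 fell, from a sum of 19204 and 15294 CPM to 11766 and 12141 CPM. Of the other marker lists, 4 of 8 adipocyte and 2 of 7 macrophage genes fell, 1 of each rose, and the 6 endothelial and 6 fibroblast genes had median log2 fold changes of -0.062 and 0.10. These marker counts stand beside 10.7% of all tested genes that fell and 15.5% that rose. The share of counts on genes encoded by the mitochondrial genome was 5.89% and 6.49% in control and 10.8% and 11.2% in fructose. The part of these shifts in the values of the import genes was not tested. In such bulk tissue, fewer cells of a type and less RNA per cell cannot be told apart.

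Most mitochondrial proteins are made in the cytosol from nuclear genes and enter the organelle unfolded. Receptors of the TOM complex bind the precursors, the Tomm40 channel passes them through the outer membrane, and the paths then part. Barrel proteins go to the sorting and assembly machinery (SAM), carriers go by the small TIM chaperones to TIM22, cysteine-rich proteins are trapped by the MIA disulfide relay, and proteins with a cleavable presequence go through TIM23, where the Hspa9 motor pulls them into the matrix. Brown adipocytes are packed with mitochondria, and their heat production rests on proteins imported in this way.

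Promoter sequences from RefSeq (GRCm38.p6, 250 bases before to 50 after a gene's start) were matched to 35 of the 40 genes, all but Grpel2, Hspa9, Timm21, Tomm40l and Tomm7. They were searched on both strands for the motifs of factors known for control of mitochondrial genes, and no match of 1 motif overlapped a match of another in these promoters. The NRF1 motif, the letters GCGC, then A and any base, then GCGC again, was in 5 of the 35 promoters (14.3%), those of Chchd4, Hspd1, Pam16, Timm8b and Tomm20, against 5.19% of the 27025 genes with a promoter and 11.4% of the 10055 of them that were tested here. The ETS motif CCGGAAGT, the kind bound by GABPA, was in 8 promoters (22.9%), those of Mtx2, Pmpcb, Timm10, Timm10b, Timm23, Timm29, Timm8a2 and Tomm70a, against 4.31% of all genes and 8.96% of tested genes. The ESRRA motif TCAAGGTCA was in 1 promoter, that of Timm8b (2.86%, against 0.466% of all genes and 0.348% of tested genes). The CREB motif TGACGTCA was in none, against 2.03% of all genes and 3.47% of tested genes, and the YY1 motif was in those of Mtx1 and Timm50 (5.71%, against 0.995% of all genes and 2.37% of tested genes). Tomm20 and Tomm70a, the receptors whose levels moved in opposite directions in the counts as deposited, are shown with Chchd4 and Mtx2, which hold the same motifs, as the stretch before the start that lies outside every annotated exon. They lie at chr8:126945922-126946171 (minus strand, Tomm20), chr16:57121464-57121702 (plus strand, Tomm70a), chr6:91473547-91473673 (minus strand, Chchd4) and chr2:74825562-74825802 (plus strand, Mtx2). Capitals mark the NRF1 letters, read from the opposite strand, in Tomm20 and Chchd4 and the ETS letters in Tomm70a and Mtx2.
Tomm20: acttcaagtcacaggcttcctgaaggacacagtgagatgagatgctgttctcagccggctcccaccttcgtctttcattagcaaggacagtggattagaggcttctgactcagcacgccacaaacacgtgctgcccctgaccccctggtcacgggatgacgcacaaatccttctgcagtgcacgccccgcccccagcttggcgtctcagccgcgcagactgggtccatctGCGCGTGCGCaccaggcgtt
Chchd4: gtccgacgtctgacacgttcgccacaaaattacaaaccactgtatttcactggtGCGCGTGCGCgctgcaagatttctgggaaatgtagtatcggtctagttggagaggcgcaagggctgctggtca
Tomm70a: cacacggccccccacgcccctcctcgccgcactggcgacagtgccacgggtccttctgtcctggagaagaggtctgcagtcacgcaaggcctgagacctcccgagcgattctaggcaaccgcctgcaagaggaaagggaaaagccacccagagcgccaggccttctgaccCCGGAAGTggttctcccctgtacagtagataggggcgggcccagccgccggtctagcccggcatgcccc
Mtx2: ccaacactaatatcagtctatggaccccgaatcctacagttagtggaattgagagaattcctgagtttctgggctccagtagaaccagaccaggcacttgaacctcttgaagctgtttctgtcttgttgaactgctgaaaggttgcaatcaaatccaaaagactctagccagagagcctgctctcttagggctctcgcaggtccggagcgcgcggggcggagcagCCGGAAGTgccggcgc
These matches are descriptions of letters and not of bound sites. The 5 tested import genes with the NRF1 letters had a median log2 fold change of -0.12 and the 28 without had -0.20. The 7 tested with the ETS letters had -0.16 against -0.22 for the 26 without. The 2 with the YY1 letters had -0.47 against -0.18, and the 1 with the ESRRA letters had -0.12 against -0.20. Over all tested genes the medians with and without the letters were -0.031 and -0.00090 (NRF1), -0.079 and 0.0032 (ETS), -0.078 and -0.0030 (YY1) and -0.15 and -0.0035 (ESRRA). Promoters with the NRF1 letters and those with the ETS letters stood before genes with negative and genes with positive log2 fold changes. Tomm20 and Hspd1 showed this for NRF1 and Pmpcb and Tomm70a for ETS.

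Most import genes were lower in the fructose group, by a small amount. Of the 40 genes, 38 had enough counts to be tested, and 34 of these had a lower and 4 a higher mean level in fructose. With edgeR's quasi-likelihood test and Benjamini-Hochberg adjustment over all 12888 tested genes, 12 import genes fell (31.6%) against a background of 10.7% of all tested genes, and 2 rose (5.26%) against 15.5%. The median log2 fold change (fructose against control) was -0.20, with a middle range from -0.26 to -0.12, beside 0.0025 over all tested genes. Both fructose libraries lay below both control libraries for 26 import genes (68.4%), against 31.6% of all tested genes, and above them for 3 (7.89%), against 33.4%. Their summed level was 6719 and 6867 CPM in control and 6012 and 5672 CPM in fructose. Without fructose library 2 most calls of import genes were lost, and only Timm50, Timm17b and Tomm70a kept theirs. Without control library 1, control library 2 and fructose library 1, 17, 11 and 8 import genes fell, beside 12.8%, 11.2% and 6.31% of all tested genes. The median without each library in turn lay between -0.27 and -0.15.

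**Figure D1:**
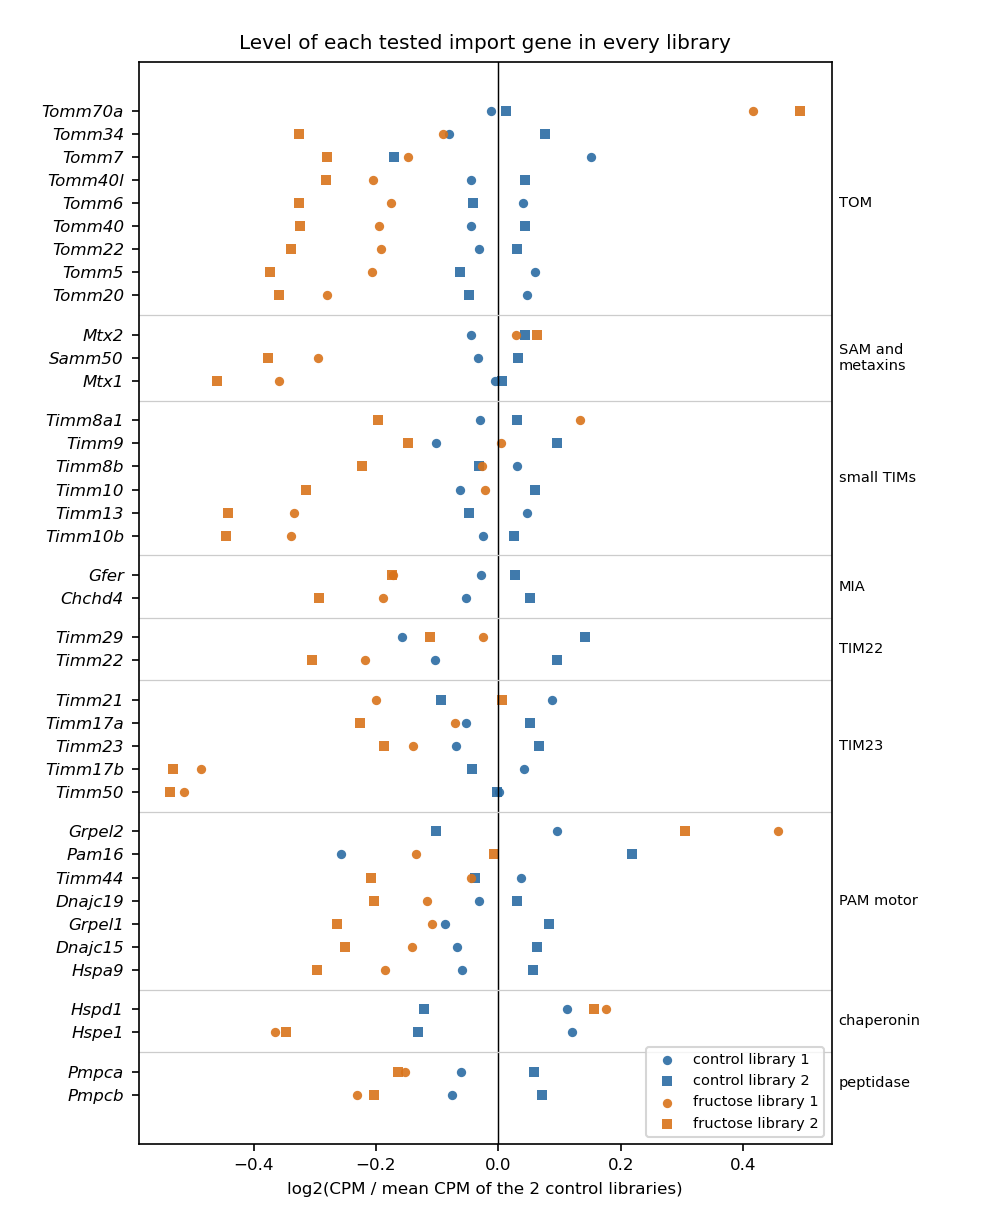
Level of each of the 38 tested import genes in the 4 libraries, as log2 of its CPM over the mean CPM of the 2 control libraries (x axis), with the genes ordered by role (y axis). Both fructose libraries (orange) lie below both control libraries (blue) for 26 genes and above them for Tomm70a, Grpel2 and Hspd1.

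Fold changes in these libraries went with transcript length and GC content. Over 12884 tested genes with a known transcript, the log2 fold change had a Spearman correlation of 0.49 with length and -0.52 with GC content, given here as a description across genes, which share the same 4 libraries. The differences within a group followed them less, with 0.019 and 0.13 between the control libraries and 0.16 and -0.21 between the fructose libraries. The tested import genes were shorter than the tested genes in all (median transcript of 2046 against 3000 bases) and lower in GC (48.9% against 50.8%). When both trends were removed from each library, 10 import genes fell, against a background of 3.17%, and 0 rose in the edgeR test, against 3.73% (also 0 at an unadjusted p under 0.05), and their median was -0.15. The calls were in part on other genes. Tomm20, Samm50, Timm17b and Tomm40l were called both ways, 10 genes were called only in the counts as deposited, and Timm17a, Timm21, Dnajc15, Dnajc19, Hspa9 and Chchd4 only after removal. Values after removal of both trends are therefore given beside the fold changes of the genes that passed the test in either fit. Biology and preparation of the libraries cannot be told apart as the source of these trends.

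**Figure D2:**
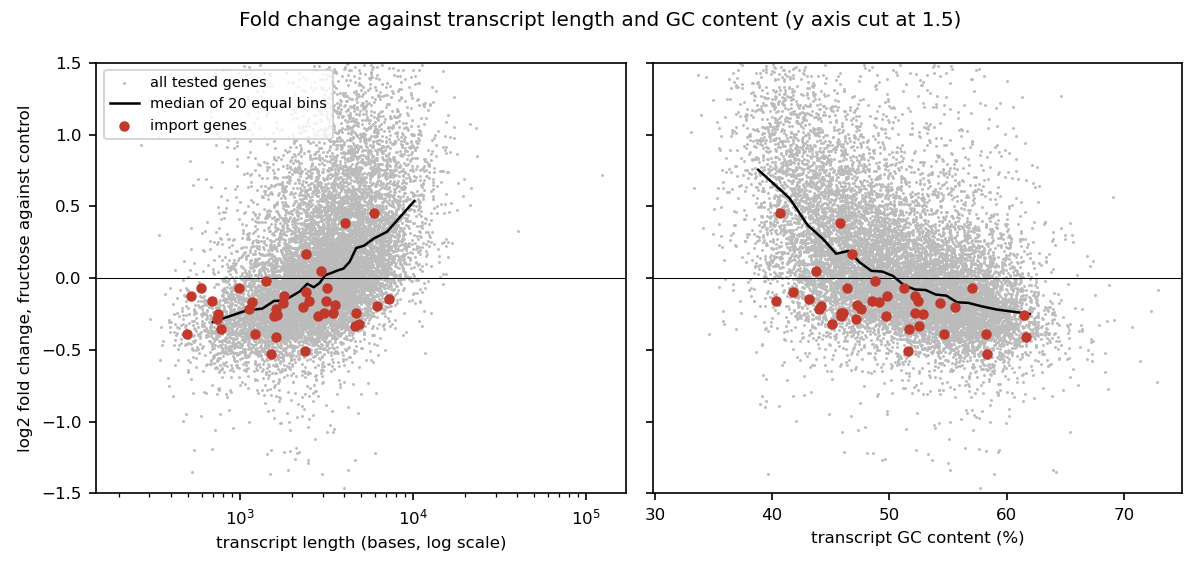
Log2 fold change of all tested genes (grey) and of the import genes (red) against transcript length on a log scale (left, bases) and against transcript GC content (right, %), with the y axis cut at 1.5. The black line is the median of 20 bins with equal numbers of genes, and it climbs with length and drops with GC.

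At the outer membrane, 5 of the 9 tested TOM genes fell (Tomm20, Tomm5, Tomm22, Tomm40 and Tomm40l) and 1 rose (Tomm70a), while Tomm6, Tomm7 and Tomm34 did not pass the test. Tomm20, the receptor for presequences (chromosome 8), was at 258 and 241 CPM in control and at 206 and 195 CPM in fructose. The groups did not overlap, and Tomm20 fell by 0.32 on the log2 scale (SE 0.083, adjusted p = 0.015 by edgeR's quasi-likelihood test) and by 0.64 with both trends removed (adjusted p = 0.0017). Without fructose library 2 it was at -0.28 with an adjusted p of 0.15. Tomm70a, the receptor that takes carrier precursors from cytosolic chaperones (chromosome 16), went the other way. It was at 43.7 and 44.5 CPM in control and at 58.9 and 62.1 CPM in fructose, so that both fructose libraries were above both controls. It rose by 0.46 (SE 0.086, adjusted p = 0.0034), and by 0.42 to 0.50 without any 1 library. Its transcript is long and poor in GC, and with both trends removed the difference turned to -0.24 (adjusted p = 0.16).

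The channel protein Tomm40 was at 202 and 214 CPM in control and 182 and 166 CPM in fructose, and its relative Tomm40l was at 123 and 131 CPM in control and 110.1 and 104 CPM in fructose. Neither overlapped between groups. Tomm40 fell by 0.26 (SE 0.085, adjusted p = 0.041) and Tomm40l by 0.24 (SE 0.082, adjusted p = 0.046), both near the threshold. With both trends removed Tomm40 was at 0.062 (adjusted p = 0.70) and Tomm40l at -0.32 (adjusted p = 0.037). The calls of Tomm40 and Tomm40l in the counts as deposited were both lost without control library 2, fructose library 1 or fructose library 2. Over all left-out libraries Tomm40 lay between -0.32 and -0.19 and Tomm40l between -0.29 and -0.20. The call of Tomm40l was also lost with DESeq2 (adjusted p = 0.067), with library size only and with either other filter on low counts. It was lost too with the replicate number as a block and with the GC trend alone removed. Tomm40l was not called either when both trends were removed with the block or by the medians of the coding transcripts. Tomm22, the receptor that also holds the complex together, fell by 0.26 (adjusted p = 0.040), a call lost without the same 3 libraries (adjusted p = 0.058, 0.060 and 0.36) and with both trends removed (-0.27, adjusted p = 0.081). Tomm5, a small subunit, fell by 0.29 (adjusted p = 0.033), and that call was lost without control library 1 (adjusted p = 0.066) or fructose library 2 (adjusted p = 0.31) and with both trends removed (-0.14, adjusted p = 0.35).

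The small subunit Tomm6 had the highest level per transcript length in the TOM group, with 151 and 142 CPM in control and 130 and 117 CPM in fructose. Its groups did not overlap, but its log2 fold change of -0.25 had an adjusted p of 0.050, just above the threshold, and with both trends removed it was 0.068. Without control library 2 it passed (adjusted p = 0.017). Tomm7, a small subunit that loosens the complex, overlapped between groups at 106 and 84.7 CPM against 86.1 and 78.5 CPM (log2 fold change -0.21, adjusted p = 0.16). It too passed without control library 2 (adjusted p = 0.0024). Tomm34, a cytosolic co-chaperone, had the lowest level per length of the group (log2 fold change -0.20, adjusted p = 0.30). Tomm20l, a relative of Tomm20, had 0 counts in every library, which allows a level of up to 0.166 CPM in the control libraries and 0.133 CPM in the fructose libraries (3 counts of the total of the smaller library, counting error only).

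In the SAM group, Samm50 and Mtx1 fell and Mtx2 did not pass the test. Samm50, the barrel core of the machinery, was at 723 and 757 CPM in control and at 603 and 569.5 CPM in fructose. The groups were apart, with a fall of 0.34 (SE 0.084, adjusted p = 0.013 by edgeR's quasi-likelihood test) that was 0.40 with both trends removed (adjusted p = 0.017) and was not called without fructose library 2 (-0.29, adjusted p = 0.14). The metaxins are outer membrane partners of Samm50. Mtx1 was at 112 and 113 CPM in control and at 87.4 and 81.5 CPM in fructose, and fell by 0.41 (SE 0.081, adjusted p = 0.0044). Without fructose library 2 its adjusted p was 0.051, and with both trends removed its log2 fold change was -0.083 (adjusted p = 0.56). Mtx2 overlapped, at 96.4 and 102 CPM in control against 101 and 104 CPM in fructose (log2 fold change 0.047, adjusted p = 0.70), and turned to -0.20 with both trends removed (adjusted p = 0.18). With the GC trend alone removed it was called lower (-0.29, adjusted p = 0.045).

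The presequence translocase TIM23 held the 2 largest falls among the import genes in the counts as deposited. Timm50, the receptor of the intermembrane space that hands presequences to the channel (chromosome 7), was at 345 and 344 CPM in control and at 242 and 238 CPM in fructose. The libraries of each group lay close together and the groups were far apart. Timm50 fell by 0.52 (SE 0.079, adjusted p = 0.0011 by edgeR's quasi-likelihood test), and by 0.51 to 0.53 without any 1 library, always past the threshold. With both trends removed the fall was 0.22 and was not called (adjusted p = 0.11).

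Timm17b and Timm17a are alternative subunits of the TIM23 channel. Timm17b (X chromosome) was at 58.4 and 55.0 CPM in control and at 40.5 and 39.2 CPM in fructose, with no overlap. It fell by 0.51 (SE 0.088, adjusted p = 0.0021), by 0.42 with both trends removed (adjusted p = 0.016), and under every alternative and every left-out library that was run. Timm17a was at 163 and 175 CPM in control and at 161 and 144 CPM in fructose, and its log2 fold change of -0.15 did not pass (adjusted p = 0.24). Its transcript is among the longest of the import genes, with a low GC content, and with both trends removed it fell by 0.72 (adjusted p = 0.0033). Timm23, the channel itself, had the highest level per length of the group. It was at 351 and 386 CPM in control and 334 and 324 CPM in fructose (log2 fold change -0.16, adjusted p = 0.17, and 0.047 without control library 1). Timm21, which links TIM23 to the TOM complex, overlapped between groups at 31.0 and 27.3 CPM against 25.4 and 29.3 CPM (log2 fold change -0.093, adjusted p = 0.58), and fell by 0.44 with both trends removed (adjusted p = 0.024).

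Of the 7 genes of the import motor, 1 rose in the counts as deposited and 0 fell in the edgeR test, with 2 lower at an unadjusted p under 0.05 and 1, Hspa9, called lower by DESeq2 (adjusted p = 0.038). With both trends removed 3 fell. Grpel2, a nucleotide exchange factor for Hspa9, was at 18.3 and 15.97 CPM in control and at 23.5 and 21.2 CPM in fructose. It rose by 0.38 (SE 0.126, adjusted p = 0.043 by edgeR's quasi-likelihood test). This call was lost without control library 2, fructose library 1 or fructose library 2 (adjusted p = 0.15, 0.24 and 0.074) and with DESeq2 (adjusted p = 0.11), and with both trends removed the value was 0.16 (adjusted p = 0.48). Grpel1, the other exchange factor, was at 383 and 431 CPM in control and at 378 and 339 CPM in fructose. Both fructose libraries were below both controls, with a log2 fold change of -0.18 (adjusted p = 0.16, and 0.018 without control library 1).

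Hspa9, the mitochondrial Hsp70 that drives the motor, had the highest level per length of this group. It was at 783 and 848 CPM in control and at 717 and 664 CPM in fructose, without overlap. The log2 fold change of -0.24 (SE 0.088) missed the threshold (adjusted p = 0.065), which it passed without control library 1 (adjusted p = 0.0066) and with both trends removed (-0.39, adjusted p = 0.030). The J proteins Dnajc19 and Dnajc15 stimulate Hspa9. Dnajc19 was at 52.3 and 54.6 CPM in control and at 49.3 and 46.4 CPM in fructose (log2 fold change -0.16, adjusted p = 0.20), and Dnajc15 at 236 and 258 CPM against 224 and 207.5 CPM (log2 fold change -0.20, adjusted p = 0.11, and 0.025 without control library 1). They fell by 0.63 and 0.64 with both trends removed (adjusted p = 0.0073 and 0.0041). Pam16, which holds back the J proteins, overlapped at 17.5 and 24.3 CPM against 19.1 and 20.8 CPM (log2 fold change -0.068, adjusted p = 0.77). Timm44, the anchor of the motor, did not pass either (log2 fold change -0.12, adjusted p = 0.31).

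**Figure D3:**
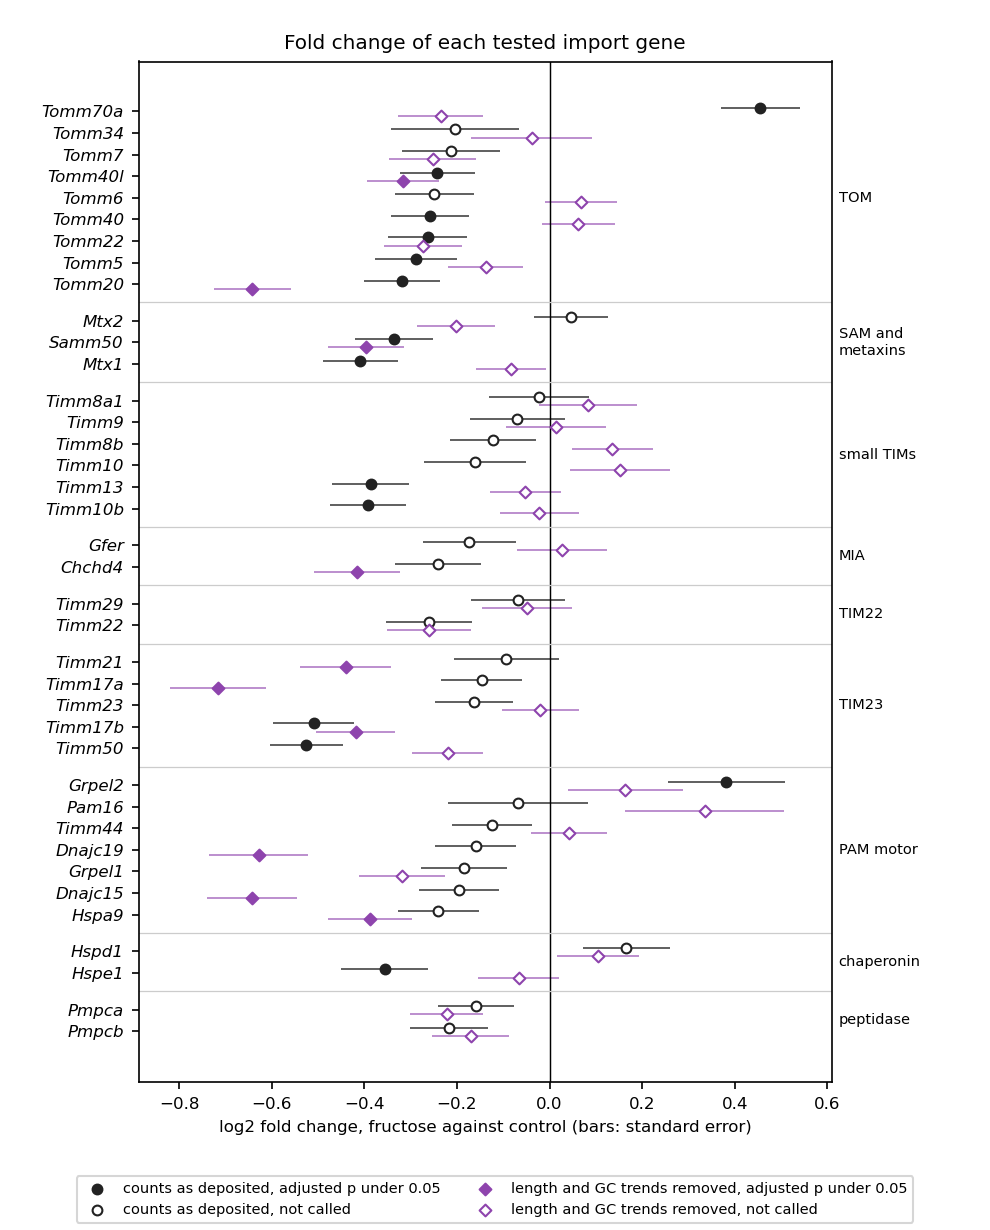
Log2 fold change of each tested import gene, fructose against control (x axis, bars are standard errors), from the counts as deposited (black circles) and with the length and GC trends removed (purple diamonds), filled where the adjusted p was under 0.05. Samm50, Timm17b, Tomm20 and Tomm40l are filled in both, and Tomm70a crosses from 0.46 to -0.24.

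Among the small TIM chaperones, which escort membrane proteins across the intermembrane space, Timm13 and Timm10b fell and the other tested members did not pass. Timm10b had the lowest fold change of the group, with 93.2 and 96.6 CPM in control and 75.03 and 69.7 CPM in fructose. It also had the highest level per length, but only by the 494 bases of its chosen transcript, while its annotated exons together cover 3582 bases. The groups did not overlap, with a fall of 0.39 (SE 0.082, adjusted p = 0.0058 by edgeR's quasi-likelihood test). Timm13 fell by 0.39 as well (SE 0.083, adjusted p = 0.0066). Without fructose library 2 neither was called (adjusted p = 0.068 and 0.075), and with both trends removed they were at -0.022 and -0.052. Timm9 and Timm10, which pair in a hexamer, overlapped between groups. Timm9 was at 37.0 and 42.5 CPM in control and 39.9 and 35.9 CPM in fructose, and Timm10 at 38.8 and 42.25 CPM against 39.9 and 32.6 CPM (log2 fold changes of -0.070 and -0.16, adjusted p = 0.65 and 0.30).

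Timm8b and Timm8a1, relatives of which Timm8a1 is a partner of Timm13, did not separate the groups. Timm8b was at 60.1 and 57.6 CPM in control and at 57.8 and 50.5 CPM in fructose, and the X-linked Timm8a1 at 55.0 and 57.3 CPM against 61.6 and 49.0 CPM. Their log2 fold changes were -0.12 (adjusted p = 0.36) and -0.022 (adjusted p = 0.90), and the value of Timm8a1 changed sign when the libraries were scaled by their totals alone (0.037). Timm8a2 had 0 counts in every library. Timm22, the carrier channel, was at 61.3 and 70.4 CPM in control and at 56.6 and 53.3 CPM in fructose. Its log2 fold change of -0.26 had an adjusted p of 0.058, which was 0.0042 without control library 1. Timm29, the other import gene grouped here with TIM22, overlapped at 75.8 and 93.4 CPM against 83.1 and 78.3 CPM (log2 fold change -0.068, adjusted p = 0.66). In the disulfide relay, the oxidoreductase Chchd4 was at 42.5 and 45.7 CPM in control and at 38.7 and 36.0 CPM in fructose, without overlap. It had a log2 fold change of -0.24 (adjusted p = 0.077, and 0.042 without control library 1) and fell by 0.42 with both trends removed (adjusted p = 0.025). Gfer, the sulfhydryl oxidase that recharges it, was at 28.0 and 29.1 CPM against 25.3 and 25.3 CPM (log2 fold change -0.17, adjusted p = 0.22).

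The chaperonin genes Hspd1 (Hsp60) and Hspe1 (Hsp10), whose products fold imported proteins in the matrix, differed in direction, and of them Hspe1 alone passed the test. They lie head to head on chromosome 1, Hspd1 at 55077835 to 55088243 on the minus strand and Hspe1 at 55088132 to 55091307 on the plus strand (GRCm38), with annotated spans that overlap by 112 bases. Hspe1 was at 336 and 282 CPM in control and at 240.0 and 243 CPM in fructose, and Hspd1 at 413 and 351 CPM in control and 431 and 426 CPM in fructose. Both fructose libraries were thus below both controls for Hspe1 and above them for Hspd1. Hspe1 fell by 0.36 (SE 0.094, adjusted p = 0.017 by edgeR's quasi-likelihood test), a call lost without control library 1, fructose library 1 or fructose library 2 (adjusted p = 0.055, 0.062 and 0.059). Hspd1 had a log2 fold change of 0.17 (SE 0.093, adjusted p = 0.21), which passed without control library 1 (0.28, adjusted p = 0.014). With both trends removed the values were -0.067 for Hspe1 and 0.10 for Hspd1, neither called. The annotation names 5 pseudogenes of Hspd1 and 6 of Hspe1, and how reads matching several copies were counted is not given in the sources used here. The processing peptidase, which cuts off presequences, gave smaller differences. Its catalytic subunit Pmpcb was at 253 and 280 CPM in control and at 227 and 231 CPM in fructose, and Pmpca at 181 and 197 CPM against 170.1 and 169 CPM. Both were lower in both fructose libraries, at log2 fold changes of -0.22 for Pmpcb (adjusted p = 0.078, and 0.011 without control library 1) and -0.16 for Pmpca (adjusted p = 0.17).

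Ratios of 2 import genes within a library do not depend on how libraries are scaled, and 10 pairs of partners or relatives were compared in this way. With 2 libraries a group the exact two-sided permutation test cannot give a p below 0.333, so no ratio could pass a threshold of 0.05. For 6 pairs the groups did not overlap, each at an exact permutation p of 0.333. The share of other gene pairs whose ratios are apart in this way was not computed, so this count has no background. Among single tested genes, both fructose libraries lay below both controls for 31.6% and above them for 33.4%. The log2 ratio of Hspd1 to Hspe1 was 0.30 and 0.31 in control and 0.85 and 0.81 in fructose, a difference of 0.52 beside a pooled SD of 0.020. The ratio of Tomm70a to Tomm20 rose from -2.56 and -2.44 to -1.80 and -1.65, a difference of 0.77 with a pooled SD of 0.098. Both ratios were therefore higher in each fructose library than in either control library. The ratio of Timm17a to Timm17b was higher in fructose by 0.36, with a pooled SD of 0.11. The ratio of Mtx1 to Mtx2 was lower by 0.46 (pooled SD 0.077) and that of Grpel1 to Grpel2 lower by 0.57 (pooled SD 0.18). That of Pmpca to Pmpcb was higher by 0.058 (pooled SD 0.024). Tomm40 to Tomm40l, Dnajc19 to Dnajc15, Timm9 to Timm10 and Timm8b to Timm8a1 overlapped between groups, with differences of -0.017, 0.035, 0.098 and -0.093 (exact p from 0.667 to 1). The members of a pair also differ in transcript length and GC content, and with both trends removed several differences turned or shrank. Those of Timm17a to Timm17b, Mtx1 to Mtx2 and Pmpca to Pmpcb turned to -0.30, 0.12 and -0.052. Those of Hspd1 to Hspe1 and Tomm70a to Tomm20 were then 0.17 and 0.41, and that of Grpel1 to Grpel2 was -0.48.

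**Figure D4:**
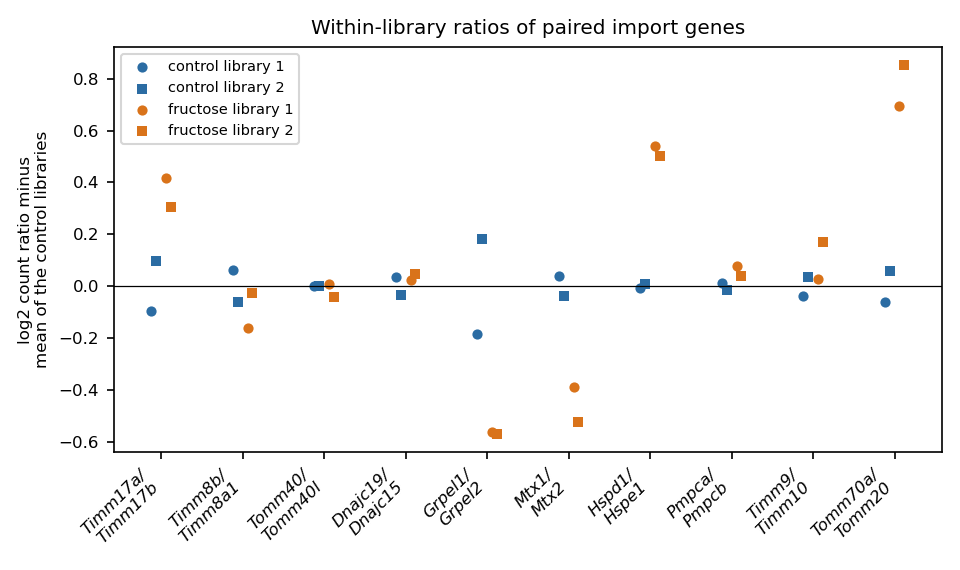
Log2 ratio of counts of 2 import genes in each library, less the mean of the control libraries (y axis), for the 10 pairs (x axis). Both fructose libraries (orange) stand above both control libraries (blue) for Timm17a to Timm17b, Hspd1 to Hspe1, Pmpca to Pmpcb and Tomm70a to Tomm20, and below them for Grpel1 to Grpel2 and Mtx1 to Mtx2.

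Levels were compared between genes per kilobase of the transcript with the longest coding sequence. The order depends on that choice, as transcript and joint exon length differ for some genes (774 and 1474 bases for Hspe1, 494 and 3582 for Timm10b). An order by joint exon length was not made. Hspe1 had the highest mean level over the 4 libraries (356 CPM per kb), followed by Timm23 (297), Hspa9 (247), Timm50 (193) and Tomm6 (180.1). The lowest were Tomm70a (8.77 CPM per kb), Tomm34 (6.96) and Grpel2 (4.89), apart from Tomm20l and Timm8a2 at 0. The receptor Tomm70a thus stood far below Tomm20, which was at 45.9 CPM per kb. The order was close to the same in both groups. Hspd1 moved most, from rank 11 in control to rank 4 in fructose, and Timm50 went from 4 to 6, but neighbours in this order often overlapped in their libraries, as those of Tomm6, Timm10b, Hspd1 and Tomm5 did.

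**Figure D5:**
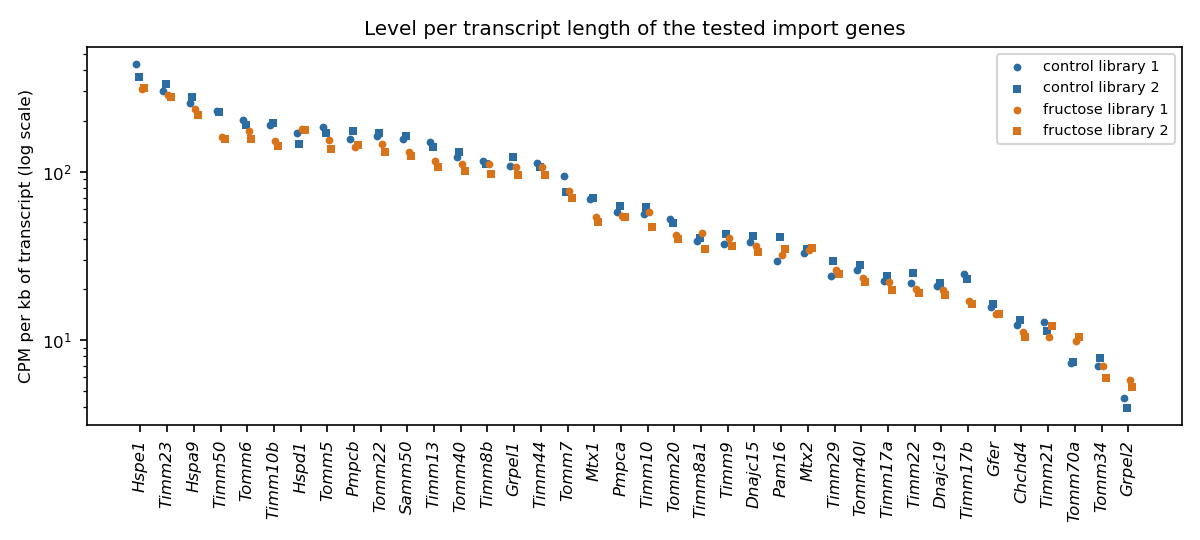
Level of each tested import gene in the 4 libraries, in CPM per kilobase of transcript on a log scale (y axis), with the genes ordered by their mean (x axis). Levels run from 356 for Hspe1 to 4.89 for Grpel2.

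Of the 38 tested import genes and 2 at 0, 17 share an annotated exon with another gene of the count table, and the sources used here do not say whether counting used the strand. Reads of such partners cannot be told apart without strand. Timm10b overlaps Gm45799 on its own strand (101 and 96 counts in control, 131 and 89 in fructose) and Arfip2 on the other, which fell too (log2 fold change -0.27, adjusted p = 0.045 by edgeR's quasi-likelihood test). Mtx1 overlaps Thbs3, which had 286 to 346 counts a library against 1976 to 2114 for Mtx1.

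Other nuclear genes of mitochondria were lower as well. Of 78 mitochondrial ribosomal proteins 40 fell (51.3%, against 10.7% of all tested genes), with a median log2 fold change of -0.26. Of 38 nuclear subunits of complex I 30 fell (78.9%), with a median of -0.31. With edgeR 0 genes of either list rose (1 and 0 at an unadjusted p under 0.05), against 15.5% of all tested genes. The same held with DESeq2 (0 and 0 unadjusted), against 10.6%. The 78 tested cytosolic ribosomal proteins, which do not enter mitochondria, had 64 that fell (82.1%) and a median of -0.44. The median of the import genes (-0.20) was nearer to 0 than each of these. The order changed with both trends removed, where the import genes were at -0.15, the mitochondrial ribosomal proteins at -0.097, complex I at -0.081 and the cytosolic ribosomal proteins at -0.17. In that fit 20 mitochondrial ribosomal proteins, 4 complex I subunits and 15 cytosolic ribosomal proteins fell, beside 3.17% of all tested genes. These differences between lists were not tested. The 13 protein genes of the mitochondrial genome, whose products need no import, were higher, with a median of 0.92. Of these 12 passed the threshold (92.3%, against 15.5% of all tested genes). With both trends removed 4 rose (3.73% of all tested genes did) and the median was 0.34. With the GC trend alone removed 1 rose (7.51% of all), 2 fell (7.64% of all) and the median was 0.086.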

How the data were processed

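RNA-seq libraries of fetal BAT (2 control, 2 fructose) were processed by the authors, who filtered reads with fastp, mapped them to mm10 with Bowtie2 2.0.0.5 and TopHat2 2.0.0 and assembled transcripts with StringTie 2.2.0 (versions from the submitters' processing notes), and deposited raw read counts per gene. The counting tool, its use of strand and its treatment of reads matching several genes are not given in the sources used here, so values of overlapping genes and of genes with pseudogenes are uncertain. Tables of the 4 separate libraries repeated the values of the joint table. Of its 22298 Ensembl identifiers, 43 had no match in GENCODE M21 (GRCm38), which gave symbols, positions and the transcript with the longest coding sequence, used for length and GC content.

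Counts were normalized with TMM, filtered with filterByExpr and tested with edgeR 4.0.16 (R 4.3.3) by the quasi-likelihood test, two-sided, without covariates, with Benjamini-Hochberg adjustment and a threshold of 0.05. A gene said to rise or fall passed this threshold. Groups were taken from the sample labels. Replicates differed by more than counting noise (chi-square per degree of freedom of 13.1 in control and 8.45 in fructose), and as nothing says that they came from separate litters, p-values measure only the spread between these samples. At these depths 3 counts are 0.122 to 0.166 CPM. Trends with length and GC were removed per library by lowess (span 0.3) as offsets. Pair ratios used raw counts with 1 added to each. Their values with both trends removed are differences between the fitted log2 fold changes of the paired genes. Alternatives were DESeq2 1.42.0, other scalings and filters, the replicate number as a block, the trend removals, the p under 0.05 with a fold change above 1.3 of the study, and each library left out. The fits were tested on simulated data. Figures were drawn with matplotlib 3.10.9 in Python 3.11.15.

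The members, role groups, comparison lists and tests were chosen with earlier results of these data known. All members were counted, and values per library are given, in each role group, for the genes with the highest level per length and the lowest and highest fold change, for genes that rose or had 0 counts, and for the genes of the pairs; a few others were added after their values were seen.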

Additional observations from a re-analysis of the deposited data

How the results depend on the processing

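With DESeq2 12 import genes fell (8.25% of all tested genes did) and 1 rose (10.6% of all did). With the length trend removed 9 fell (7.96% of all) and 0 rose (9.34% of all), with 2 import genes higher at an unadjusted p under 0.05. The median log2 fold change was then -0.096. With the GC trend removed 19 fell (7.64% of all) and 0 rose (7.51% of all). With both removed 10 fell (3.17% of all) and 0 rose (3.73% of all). In both of these fits 0 import genes were higher at an unadjusted p under 0.05. The study's threshold (unadjusted p under 0.05, fold change above 1.3), applied to edgeR's p in place of DESeq2's, gave 5 that fell and 2 that rose. The share of all tested genes at this threshold was not computed, so these counts have no background to be read against. With the replicate number as a block 12 fell (11.2% of all) and 2 rose (16.4% of all), with a median of -0.20. With the block and the length trend removed the median was -0.091 and 0 rose, as with the block and GC or both trends removed (0, 0 and 1 unadjusted, all in edgeR). Of all tested genes 10.6%, 8.98% and 3.93% rose in these fits. The numbers mark no shared litter or day in the labels, and the deviations of same-numbered libraries had a correlation of -0.027 over genes. Both trends were also removed by the median length and GC of a gene's coding transcripts, an alternative chosen after seeing the data. This gave 13 that fell (4.58% of all) and 0 that rose (6.67% of all), with 1 import gene higher at an unadjusted p under 0.05. With each library left out in turn, 2 to 17 fell, 1 to 3 rose and the median was -0.27 to -0.15; the group with 1 library left is assumed to vary like the other. Scaling, filter and library size alternatives gave 8 to 13 that fell (6.67% to 11.4% of all) and 2 that rose (13.6% to 17.4% of all).

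Directions turned as follows, for Tomm40 and Tomm70a and otherwise for genes that were not called in the counts as deposited, and the cause was not tested. With the length trend removed, log2 fold changes became 0.23 for Pam16, 0.039 for Timm23, 0.023 for Tomm6, 0.00048 for Tomm7, 0.12 for Timm10, 0.15 for Timm8a1, 0.20 for Timm8b and 0.16 for Timm9 (with the block 0.25, 0.042, 0.023, 0.0062, 0.12, 0.14, 0.20 and 0.16). With the GC trend removed they became 0.093 for Pam16, -0.29 for Mtx2 and -0.12 for Tomm70a (with the block 0.10, -0.29 and -0.12), with Mtx2 called lower in both (adjusted p = 0.045 and 0.037). With both removed they became 0.027 for Gfer, 0.33 for Pam16, 0.042 for Timm44, -0.20 for Mtx2, 0.062 for Tomm40, 0.068 for Tomm6, -0.24 for Tomm70a, 0.15 for Timm10, 0.083 for Timm8a1, 0.14 for Timm8b and 0.014 for Timm9 (with the block 0.027, 0.35, 0.042, -0.20, 0.063, 0.068, -0.23, 0.15, 0.077, 0.13 and 0.017). With the coding-transcript medians they became 0.098 for Gfer, 0.18 for Pam16, -0.34 for Mtx2 (adjusted p = 0.027), 0.0024 for Tomm40, -0.34 for Tomm70a (adjusted p = 0.040) and 0.028 for Timm10. Timm8a1 was at 0.037 with library size only. Leaving out 1 library at a time, the values ran from -5.05e-05 to 0.092 for Mtx2, from -0.29 to 0.19 for Pam16, from -0.21 to 0.090 for Timm29, from -0.19 to 0.14 for Timm8a1 (0.0081 without control library 2), from -0.17 to 0.032 for Timm9 (0.0074 without fructose library 2) and from -0.20 to 0.0088 for Timm21. With 2 libraries a group, differences of the size seen in Tomm40l and Tomm22 lay at the limit of what the fit called.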

Other observations

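A wider list of 32 import-related mitochondrial genes was counted, of which 30 were found and tested. It held peptidases, proteases and chaperones, and also genes of cristae shape, Phb, Phb2, Vdac1, Vdac2 and Vdac3. In edgeR's quasi-likelihood test 12 fell (40%, against 10.7% of all tested genes) and 3 rose (10%, against 15.5%), with a median log2 fold change of -0.20. Among those that fell were Chchd6, a subunit of the cristae-shaping MICOS complex (-0.54, adjusted p = 0.0012), the intermembrane protease Htra2 (-0.49, adjusted p = 0.0025), the inner membrane peptidase subunit Immp1l (-0.46, adjusted p = 0.0043), the matrix protease subunit Clpp (-0.45, adjusted p = 0.0028) and Oxa1l, the insertase of the inner membrane (-0.34, adjusted p = 0.015). Those that rose were Mtx3, a metaxin (1.15, adjusted p = 0.00066), Yme1l1, an inner membrane protease (0.997, adjusted p = 0.00085), and Clpx, the unfoldase partner of Clpp (0.40, adjusted p = 0.0058).

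Mtx3 was at 7.92 and 9.43 CPM in control and at 20.96 and 17.5 CPM in fructose, and Clpx at 84.6 and 91.6 CPM against 112 and 119.9 CPM. Both fructose libraries were above both controls for each. Clpp, at 144 and 143 CPM against 109 and 102 CPM, was lower where its partner was higher. With the length and GC trends removed, 3 genes of the list fell, Immp1l by 0.83 (adjusted p = 0.00072), Apool, a MICOS subunit, by 0.47 (adjusted p = 0.024) and Mipep, the mitochondrial intermediate peptidase, by 0.29 (adjusted p = 0.040). In that fit 0 rose (2 at an unadjusted p under 0.05), with Mtx3 at 0.56 (adjusted p = 0.077), Yme1l1 at 0.21 (adjusted p = 0.37) and Clpx at 0.21 (adjusted p = 0.16). Chchd6, Htra2, Clpp and Oxa1l were then at -0.20, -0.23, -0.078 and -0.23, none called (adjusted p from 0.12 to 0.59).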
